A study of Homo sapiens with 96 samples.

Results

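Alternative splicing was examined in 9 long noncoding RNA genes that host small nucleolar RNAs (snoRNAs) in their introns: SNHG1, SNHG5, SNHG6, ZFAS1, C17orf76-AS1, SNHG8, SNHG15, EPB41L4A-AS1, and SNHG12. All splicing events listed under these gene symbols were taken, which gave 272 of the 239131 distinct events in the data, in 9 of 14359 genes. The events comprised 149 skipped exons (SE), 71 pairs of mutually exclusive exons (MXE), 18 alternative 3′ splice sites (A3SS), 17 alternative 5′ splice sites (A5SS), and 17 retained introns (RI). Of these, 244 had enough reads to be tested in at least 1 comparison with DMSO, and 92 (37.7%) were called in at least 1, against 33252 of 200646 (16.6%) over all genes. GENCODE lists C17orf76-AS1 under the name SNHG29.

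In these genes the snoRNAs lie in the introns and are trimmed out of them after splicing, whereas the joined exons have little or no protein-coding capacity. Box C/D snoRNAs (symbols starting with SNORD) mostly guide ribose methylation of ribosomal RNA, and box H/ACA snoRNAs (SNORA) mostly guide conversion of uridine to pseudouridine. Several spliced host RNAs are known to be short-lived because translating ribosomes trigger their decay. The splicing machinery itself carries methylated arginines: PRMT5 makes symmetric dimethylarginine on Sm proteins and other splicing factors, and Type I PRMTs make asymmetric dimethylarginine on many RNA-binding proteins.

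The cells were A549, an established line from a lung adenocarcinoma, and poly(A)-RNA was sequenced from 30 libraries in 10 groups of 3. GSK591, an inhibitor of PRMT5, was given at 1 µM for 2, 4, or 7 days, as was MS023, an inhibitor of Type I PRMTs, also at 1 µM. Co-treatment combined GSK591 and MS023 at 1 µM each for 2 or 4 days, and the vehicle was 0.01% DMSO for 4 or 7 days. The data address how inhibition of the 2 enzyme classes changes splicing over time. The 2-day and 4-day inhibitor groups were set against 4-day DMSO and the 7-day groups against 7-day DMSO, so for the 2-day groups duration and inhibitor cannot be told apart. The 3 libraries of a group are not stated to come from separate cultures, and p-values therefore measure the spread between these samples, which may be technical. The values describe splicing events and no gene levels, so the identity of the line was not checked here.

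Each event is given as Ψ, the fraction of the RNA counted at that event that includes the exon, segment, or intron. ΔΨ is Ψ (inhibitor) minus Ψ (DMSO), with the SE of the difference of the means. The events of the 9 genes were deeply covered, with a median of 574 to 984 reads per event and library, against 184 to 239 over all tested events. Reads on RI summed to between 3118222 and 5224249 per library. The library with the most, library a of 2 days of GSK591 (the first of the 3 values given for that group), stood apart from the others of its group. Its SE reads differed from theirs by a chi-square per degree of freedom of 62.7 and 66.4, against 2.6 to 6.54 for the other 28 pairs of libraries within groups. Of 24 calls with 2 days of GSK591 at the segments described, 22 were also called without it. Those lost were the 17-nt segment of SNHG12 (ΔΨ of 0.0565 in place of 0.0892) and a 69-nt exon of SNHG6 (-0.0182 in place of -0.0168). The cause of its difference was not tested. For RI, reads lying inside the intron count toward inclusion, so reads from a snoRNA in that intron cannot be told apart from retention. Events that share an exon also share its reads, so the events of 1 gene are not independent of each other. An event was called at an adjusted p under 0.05 (quasi-binomial model with moderated dispersion, Benjamini-Hochberg within the event type).

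A larger share of the tested events was called in the 9 genes than over all events in each comparison with DMSO. Most called events had lower inclusion, as they did over all events in each of these comparisons. With GSK591, 17 events were higher and 25 lower of 142 tested at 2 days (7.02% of all events called), 14 higher and 29 lower of 138 at 4 days (11.2%), and 10 higher and 28 lower of 155 at 7 days (8.93%). With MS023, 1 was higher and 23 lower of 127 at 2 days (3.16%), 1 higher and 24 lower of 116 at 4 days (3.75%), and 4 higher and 30 lower of 156 at 7 days (4.75%). With co-treatment, 11 were higher and 33 lower of 128 at 2 days (13.4%), and 18 higher and 40 lower of 145 at 4 days (14.7%). Without library a of 2 days of GSK591, that group gave 13 higher and 21 lower of 128 (all events, 5%). As shares, 18.9% to 40% of the tested events of the 9 genes were called. Over all events, GSK591 gave 2.45%, 4.59%, and 4.24% higher and 4.57%, 6.65%, and 4.69% lower at 2, 4, and 7 days. MS023 gave 0.936%, 1.31%, and 2.02% higher and 2.23%, 2.44%, and 2.73% lower. Co-treatment gave 4.12% and 5.76% higher and 9.25% and 8.93% lower at 2 and 4 days. The greater read depth of the 9 genes moves with their larger share of calls, and its part in it was not tested. The median ΔΨ over the tested events of the 9 genes stayed between -0.00564 and -0.000261, against -0.00222 to -0.000233 over all tested events.

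**Figure D1:**
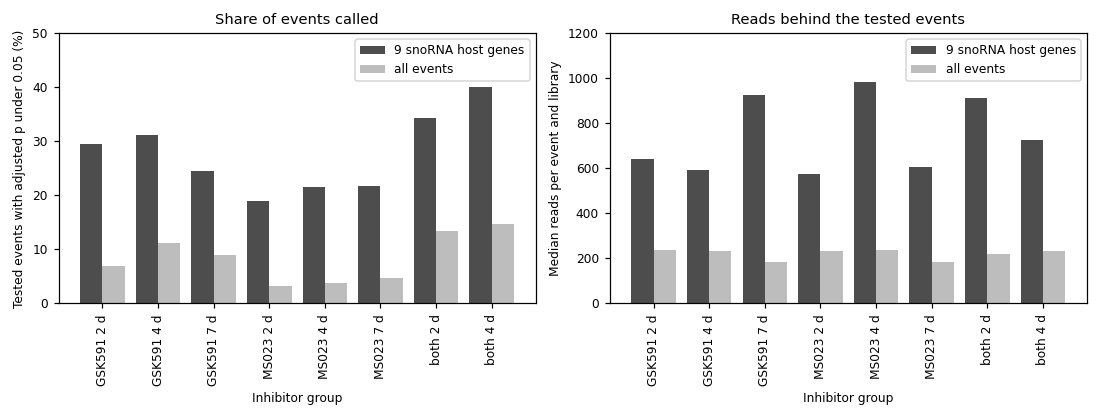
Left, the percent of tested splicing events called at an adjusted p under 0.05 in the 9 snoRNA host genes (dark bars) and over all events (light bars) for each inhibitor group against DMSO. Right, the median reads per event and library behind these bars; the 9 genes were higher in both panels for every inhibitor group, with 40% of events called after 4 days of co-treatment against 14.7% over all events.

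SNHG1 is a host of box C/D snoRNAs (RefSeq lists SNORD22 and SNORD25 to SNORD31 within it) at chr11:62619450-62623425 on the minus strand (hg19), and it held the largest exon change of the 9 genes. The affected exon is exon 4 of the canonical transcript, 51 nt at chr11:62622360-62622410, which is an exon in 43 of 80 annotated transcripts. Its sequence is shown because it is the exon that GSK591 moved most, with the exon in capitals and 30 intronic bases on either side in lower case (GRCh37, minus strand, chr11:62622330-62622440):
SNHG1 exon 4: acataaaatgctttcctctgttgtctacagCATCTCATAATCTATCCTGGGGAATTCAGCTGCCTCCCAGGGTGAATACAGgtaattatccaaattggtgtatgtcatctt

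In the 4-day DMSO libraries, Ψ of SNHG1 exon 4 was 0.828, 0.828, and 0.848. After 2 days of GSK591 it was 0.337, 0.337, and 0.385, and after 4 days 0.32, 0.327, and 0.215. Co-treatment libraries were lower still, at 0.104, 0.127, and 0.118 (2 days) and 0.0951, 0.107, and 0.0931 (4 days). The GSK591 and co-treatment libraries therefore all lay far below DMSO, and the co-treatment libraries lay below those with GSK591 alone. In reads, the 3 DMSO libraries together held 1419 for inclusion and 210 for skipping, whereas 4-day co-treatment held 488 and 3343. With MS023 the exon stayed at 0.788, 0.793, and 0.794 at 2 days and at 0.812, 0.838, and 0.813 at 4 days.

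Relative to DMSO, ΔΨ of SNHG1 exon 4 was -0.482 ± 0.0174 (SE) for GSK591 at 2 days and -0.547 ± 0.0369 at 4 days. For co-treatment it was -0.718 ± 0.00946 and -0.736 ± 0.00779. These 4 calls held when any library was left out and when the dispersion was never taken under that of the event itself (adjusted p at most 1.02e-12). In limma the adjusted p was 0.0895 with 2 days and 0.0295 with 4 days of GSK591, and 0.00891 and 0.00786 with co-treatment. For MS023 the ΔΨ of -0.0426 ± 0.00689 at 2 days and -0.0134 ± 0.0108 at 4 days did not pass the test (adjusted p = 0.203 and 0.676). The direct comparisons at the same day gave -0.439 ± 0.0163 and -0.534 ± 0.0374 for GSK591 minus MS023 at 2 and 4 days, and adding MS023 to GSK591 lowered Ψ by a further ΔΨ of -0.237 ± 0.0175 and -0.189 ± 0.0366. Without library a of 2 days of GSK591 the 2-day ΔΨ of SNHG1 exon 4 was -0.473 against DMSO, -0.431 for GSK591 minus MS023, and -0.245 for co-treatment minus GSK591.

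At 7 days the DMSO libraries themselves were lower and more spread at SNHG1 exon 4, at 0.642, 0.684, and 0.762. GSK591 libraries were at 0.317, 0.303, and 0.257, and MS023 libraries at 0.823, 0.776, and 0.697, which overlapped DMSO. ΔΨ was -0.404 ± 0.0395 for GSK591 and called, and 0.069 ± 0.0509 for MS023 and not called (adjusted p = 0.105). The 7-day DMSO mean was 0.138 below the 4-day mean, a call that was lost without either of 2 of the 7-day DMSO libraries.

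Other SNHG1 events changed with the same inhibitors. Exon 6 (47 nt, chr11:62621490-62621536) had Ψ of 0.97, 0.956, and 0.945 in 4-day DMSO, 0.732, 0.811, and 0.717 after 4 days of GSK591, and 0.682, 0.674, and 0.698 after 4 days of co-treatment. Its ΔΨ was -0.204 ± 0.0302 with GSK591 and -0.272 ± 0.01 with co-treatment at 4 days, with no overlap between groups. The longer A3SS form that holds exon 6 together with the intron after it fell alongside, by 0.308 and 0.457 in Ψ. Exon 6 and the A3SS form were also called lower with 2 days of MS023, with ΔΨ of -0.0435 ± 0.00943 and -0.0617 ± 0.0149, but both calls were lost in 5 of 6 fits with 1 library left out and with a trended dispersion prior. For the pair of exons 3 and 4, the share of RNA with exon 3 in place of exon 4 rose from 0.367, 0.398, and 0.311 in DMSO to 0.953, 0.926, and 0.945 after 4 days of co-treatment, which restates the loss of exon 4. Exon 6, the A3SS form, and the SNHG1 exon pairs share reads with their neighbours.

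Of the 4 RI in SNHG1, 2 changed, in opposite directions. The intron between exons 3 and 4 (intron 3, 194 nt, chr11:62622411-62622604), which precedes the exon lost with GSK591, rose in Ψ. This Ψ is relative to RNA in which exons 3 and 4 are joined, and skipping of exon 4 removes such RNA. Loss of exon 4 can therefore raise it without more retention, and its part was not tested. Intron 3 had Ψ of 0.256, 0.224, and 0.261 in 4-day DMSO, 0.405, 0.405, and 0.389 after 2 days of GSK591, and 0.519, 0.495, and 0.528 after 2 days of co-treatment. The groups did not overlap, and ΔΨ was 0.153 ± 0.0127 with GSK591 and 0.267 ± 0.0151 with co-treatment. At 4 days ΔΨ was 0.115 ± 0.0514 and 0.16 ± 0.0338, and at 7 days of GSK591 it was 0.04 ± 0.021 and not called. With MS023 the libraries were at 0.26, 0.256, and 0.272 at 2 days, within the range of DMSO, and at 0.149, 0.148, and 0.123 at 7 days, below the 7-day DMSO libraries (0.233, 0.187, and 0.176). That 7-day ΔΨ of -0.0593 ± 0.0195 was called, but the call was lost without any 1 of 5 of the 6 libraries.

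Intron 6 of SNHG1 (184 nt, chr11:62621306-62621489) moved the other way. Its Ψ was 0.318, 0.286, and 0.254 in 4-day DMSO, 0.23, 0.231, and 0.22 after 2 days of GSK591, 0.134, 0.138, and 0.118 after 2 days of co-treatment, and 0.084, 0.0954, and 0.0791 after 4 days of co-treatment. All libraries with GSK591 were below all 4-day DMSO libraries, and ΔΨ with 4 days of co-treatment was -0.2 ± 0.0191. The remaining RI, of 712 and 168 nt, had Ψ near 1 and were not called. The 168-nt RI lies wholly inside intron 6 and shares its 5′ splice site, so its Ψ is relative to use of its own 3′ splice site and does not mean that most RNA keeps it. The intron 3 and intron 6 sequences are shown because their Ψ moved in opposite directions while each holds letters matching the boxes of C/D snoRNAs. The GRCh37 annotation used here gives no position for any snoRNA of SNHG1, so it cannot show whether these introns hold one. Capitals mark TGATGA (the box C letters) and the first CTGA (box D) lying 40 to 110 bases after it on the transcribed strand (GRCh37, minus strand):
SNHG1 intron 3: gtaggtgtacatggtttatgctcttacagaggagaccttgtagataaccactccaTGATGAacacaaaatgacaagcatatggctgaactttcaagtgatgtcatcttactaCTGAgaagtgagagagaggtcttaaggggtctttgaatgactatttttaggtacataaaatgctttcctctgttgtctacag
SNHG1 intron 6: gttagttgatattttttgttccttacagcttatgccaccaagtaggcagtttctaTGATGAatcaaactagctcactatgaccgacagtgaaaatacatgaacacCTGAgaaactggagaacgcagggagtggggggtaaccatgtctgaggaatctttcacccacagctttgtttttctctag

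These letters were looked for in every RI of the data, overlaps with other motifs allowed. They were found in 9 of the 17 RI of the 9 genes, at 5 distinct positions in SNHG1 and C17orf76-AS1, since several RI overlap. Over all 4928 distinct RI they were found in 221 (4.48%). On the opposite strand they were in 0 of 17 and in 3.06% of all. A match is a description of the letters and not a mapped snoRNA. All 17 introns started with GT and ended with AG, as did 96.4% of all RI, and their median length was 324 nt against 260 nt.

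C17orf76-AS1, at chr17:16342081-16383563 on the plus strand, hosts SNORD49A, SNORD49B, and SNORD65. The changes described centred on a pair of alternative exons that end at the same 5′ splice site, of 176 nt (chr17:16342842-16343017) and 123 nt (chr17:16342895-16343017). Both lie within intron 2 of the canonical transcript (770 nt, chr17:16342729-16343498). The intron upstream of these exons, in the 245-nt form annotated to run from the same 5′ splice site to position 16342973, is shown because the box C/D letters and the 3′ splice sites of the exons lie close together in it, with the box letters in capitals (GRCh37, plus strand, chr17:16342729-16342973):
C17orf76-AS1 245-nt intron: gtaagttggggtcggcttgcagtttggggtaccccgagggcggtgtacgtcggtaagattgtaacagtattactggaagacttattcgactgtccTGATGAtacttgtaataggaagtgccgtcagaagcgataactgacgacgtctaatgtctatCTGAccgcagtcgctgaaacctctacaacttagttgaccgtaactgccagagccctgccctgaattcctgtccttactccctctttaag

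In this sequence the box C letters start at base 96 and the box D letters at base 157. Splicing into the 176-nt exon ends the intron at base 113, between the 2 boxes, with the 3′ splice site gatacttgtaatAGg. Splicing into the 123-nt exon ends it at base 166, just after box D, at ctatctgaccgcAGt. In each of these strings the last letter is the first base of the exon.

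Inclusion of the 176-nt exon of C17orf76-AS1 fell with each inhibitor. Its Ψ was 0.509, 0.516, and 0.519 in 4-day DMSO, 0.337, 0.319, and 0.392 after 2 days of GSK591, 0.379, 0.407, and 0.398 after 2 days of MS023, and 0.246, 0.249, and 0.251 after 2 days of co-treatment. All inhibitor libraries were below DMSO, and those with both inhibitors were lowest. At 4 days Ψ was 0.361, 0.375, and 0.397 with GSK591, 0.362, 0.339, and 0.348 with MS023, and 0.254, 0.257, and 0.263 with co-treatment. Each library held between 6851 and 16419 reads on this exon at 2 and 4 days. ΔΨ was -0.165 ± 0.022 and -0.137 ± 0.0109 with GSK591, -0.12 ± 0.00893 and -0.165 ± 0.0073 with MS023, and -0.266 ± 0.00312 and -0.257 ± 0.0037 with co-treatment, at 2 and 4 days. These 6 calls held when any library was left out and with the event's own dispersion as a lower bound (adjusted p at most 3.51e-06), but none passed in limma (adjusted p 0.14 to 0.756).

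Unlike at SNHG1 exon 4, the single inhibitors gave ΔΨ of like size at this exon, and the direct test of the difference between them was called with opposite signs at 2 days (GSK591 minus MS023, -0.0451 ± 0.0234) and 4 days (0.0281 ± 0.0125), with overlapping libraries at both times. Without library a of 2 days of GSK591 the 2-day values of the 176-nt exon were -0.159 against DMSO, -0.0392 for GSK591 minus MS023, and -0.107 for co-treatment minus GSK591. Co-treatment was below GSK591 alone by 0.101 ± 0.0218 and 0.12 ± 0.0109 in Ψ, and below MS023 alone by 0.146 ± 0.00858 and 0.0919 ± 0.00715, with no overlap. The 123-nt exon changed in the same way, with ΔΨ of -0.239 ± 0.00519 after 2 days of co-treatment from a DMSO mean of 0.414.

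The 7-day DMSO libraries of C17orf76-AS1 differed from the 4-day ones, with Ψ of the 176-nt exon at 0.347, 0.341, and 0.405 against a 4-day mean of 0.515 (difference -0.15 ± 0.0208, called). Against this control, 7 days of MS023 gave 0.23, 0.226, and 0.221, a ΔΨ of -0.138 ± 0.0207 with no overlap. GSK591 gave 0.33, 0.355, and 0.324, which overlapped DMSO. Its ΔΨ of -0.0281 ± 0.0226 was called by the moderated test, but with the event's own dispersion the adjusted p was 0.506 and the call was lost in 5 of 6 fits with 1 library left out, so this difference was not larger than the spread between libraries. At 7 days GSK591 stood above MS023 by 0.11 ± 0.00982, with no overlap. Whether time in culture or another difference between the DMSO groups gave the lower 7-day control cannot be told apart.

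The RI of C17orf76-AS1 fell into several patterns. The whole of intron 2 (770 nt) had Ψ of 0.119, 0.112, and 0.105 in 4-day DMSO and lower Ψ with the inhibitor in all 8 comparisons. It was at 0.0642, 0.0727, and 0.0706 after 2 days of MS023, 0.0863, 0.0745, and 0.0857 after 2 days of GSK591, and 0.0339, 0.036, and 0.0367 after 4 days of co-treatment. No group overlapped its DMSO group, and ΔΨ ran from -0.0764 ± 0.00399 with 4 days of co-treatment to -0.012 ± 0.00752 with 7 days of GSK591, a call that was lost without the 7-day DMSO library at 0.0718 and with the event's own dispersion (adjusted p = 0.211). In the 7-day DMSO libraries Ψ was 0.0509, 0.05, and 0.0718, against 0.112 on average at 4 days. Because the alternative exons described above lie wholly within intron 2, reads of those exons count toward its inclusion. Lower use of the exons can therefore lower the Ψ of intron 2 without less retention, and its part was not tested.

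The 245-nt intron shown above, in contrast, rose with GSK591 and with co-treatment at each time, although the call with 2 days of co-treatment was lost without 1 library. Its Ψ was 0.837, 0.795, and 0.818 in 4-day DMSO, 0.887, 0.897, and 0.914 after 4 days of GSK591, and 0.893, 0.882, and 0.898 after 4 days of co-treatment. With 4 days of MS023 it was 0.799, 0.794, and 0.769, overlapping DMSO. ΔΨ was 0.0823 ± 0.0147 with GSK591 and 0.0743 ± 0.0132 with co-treatment at 4 days, and GSK591 minus MS023 was 0.112 ± 0.0124. At 7 days GSK591 libraries (0.83, 0.844, and 0.845) lay above DMSO (0.777, 0.774, and 0.77) and MS023 libraries (0.725, 0.723, and 0.706) below, with ΔΨ of 0.0659 ± 0.00541 and -0.0559 ± 0.00636, both called. Because its 3′ end lies inside the 123-nt and 176-nt exons, the reads of this intron are in part reads of those exons.

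Intron 1 of C17orf76-AS1 (266 nt, chr17:16342375-16342640) was retained less with GSK591 alone. Its Ψ was 0.515, 0.484, and 0.427 in 4-day DMSO and 0.328, 0.39, and 0.378 after 4 days of GSK591 (ΔΨ -0.11 ± 0.0321). At 7 days it was 0.366, 0.379, and 0.399 in DMSO, 0.239, 0.265, and 0.246 with GSK591 (ΔΨ -0.131 ± 0.0124), and 0.383, 0.383, and 0.406 with MS023. At 2 days GSK591 libraries were scattered, at 0.54, 0.446, and 0.396, and were not called (adjusted p = 0.892, and 0.197 without library a, at 0.54, with ΔΨ moving from -0.0144 to -0.0539). After 4 days of co-treatment the libraries were at 0.434, 0.43, and 0.444, above GSK591 alone by 0.0708 ± 0.0195 (called). The RI of 113, 166, 481, and 696 nt, which overlap the others, were called in 2 to 3 comparisons each, with ΔΨ between -0.088 and 0.0622. Of these calls, only the 3 of the 166-nt RI, the 481-nt RI with 2 days of GSK591, and the 696-nt RI with 4 days of co-treatment held when any library was left out.

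SNHG5, at chr6:86360209-86388650 on the minus strand, hosts SNORD50A and SNORD50B, and its leading event was an 81-nt exon (chr6:86387513-86387593) that is absent from the canonical transcript and is an exon in 23 of 89 transcripts. It is shown with 30 bases on either side, exon in capitals (GRCh37, minus strand, chr6:86387483-86387623). Its 5′ splice site, gaaGTaggt, follows an exon that ends in gaa, whereas SNHG1 exon 4 ends in cag:
SNHG5 81-nt exon: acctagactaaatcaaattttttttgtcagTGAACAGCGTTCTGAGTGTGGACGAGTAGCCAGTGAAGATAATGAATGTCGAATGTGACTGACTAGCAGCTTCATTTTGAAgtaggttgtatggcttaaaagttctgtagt

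Nearly all RNA counted at this event included the exon in 4-day DMSO, with Ψ of 0.98, 0.984, and 0.974. This is not a share of all SNHG5 RNA. After 2 days Ψ was 0.884, 0.881, and 0.9 with GSK591, 0.967, 0.963, and 0.963 with MS023, and 0.727, 0.73, and 0.708 with co-treatment. The groups did not overlap, and co-treatment stood apart from either inhibitor alone. ΔΨ was -0.0913 ± 0.00656, -0.0154 ± 0.00305, and -0.257 ± 0.0075, and at 4 days -0.0991 ± 0.00724, -0.0232 ± 0.00313, and -0.252 ± 0.00346. Co-treatment minus GSK591 was -0.166 ± 0.00916 at 2 days and -0.153 ± 0.007 at 4 days. In limma, only the co-treatment calls at this exon held (adjusted p = 0.0119 and 0.0104).

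The A5SS event of SNHG5, whose 159-nt segment joins this exon to the 78-nt intron before it, was called in all 8 comparisons with DMSO. Its 7-day calls were lost with the event's own dispersion, and the one with MS023 held in only 1 of 6 fits with 1 library left out. Its Ψ fell from 0.954, 0.964, and 0.945 in 4-day DMSO to 0.54, 0.545, and 0.512 after 2 days of co-treatment. Reads of the 81-nt exon count toward this segment, so this fall overlaps with the change of the exon. The high Ψ does not mean that most RNA keeps the 78-nt intron. At 7 days the 81-nt exon was at 0.926, 0.934, and 0.957 in DMSO, 0.91, 0.916, and 0.895 with GSK591, and 0.921, 0.925, and 0.914 with MS023. The 7-day ΔΨ of -0.0318 ± 0.0113 and -0.0193 ± 0.00988 were called by the moderated test, but with the event's own dispersion the adjusted p was 0.0821 and 0.407. The 78-nt intron itself was rarely retained, with Ψ of 0.0243, 0.0242, and 0.0221 in 4-day DMSO. It rose to 0.0339, 0.0367, and 0.0309 after 2 days of GSK591 and was at 0.0162, 0.0178, and 0.0177 after 2 days of MS023, and both were called, the latter a call lost without any 1 of 5 of the 6 libraries. After 4 days of GSK591 it was at 0.0253, 0.0222, and 0.0249, overlapping DMSO.

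SNHG6, which hosts SNORD87, differed from SNHG1 and SNHG5 in that MS023 moved its leading exon more than GSK591 did at 4 and 7 days. Exon 2 (112 nt) had Ψ of 0.804, 0.83, and 0.791 in 4-day DMSO. With MS023 it was 0.742, 0.679, and 0.723 at 2 days and 0.713, 0.688, and 0.733 at 4 days, and with GSK591 it was 0.742, 0.743, and 0.744 at 2 days and 0.78, 0.783, and 0.795 at 4 days. The MS023 libraries were all below DMSO, whereas those with 4 days of GSK591 overlapped it. ΔΨ with MS023 was -0.0934 ± 0.0219 and -0.097 ± 0.0175, and at 7 days -0.0799 ± 0.0101. GSK591 stood above MS023 by 0.0748 ± 0.0139 at 4 days and 0.0997 ± 0.011 at 7 days. The libraries given both inhibitors were at 0.727, 0.691, and 0.65 at 2 days (ΔΨ -0.119 ± 0.0251, called) and at 0.808, 0.757, and 0.803 at 4 days, which overlapped DMSO. No call of exon 2 against DMSO held in limma. A 69-nt exon of SNHG6 fell with co-treatment, from 0.986, 0.983, and 0.978 to 0.919, 0.911, and 0.914 at 4 days (ΔΨ -0.0678 ± 0.00308).

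ZFAS1, at chr20:47894715-47916137 on the plus strand, carries SNORD12C, SNORD12B, and SNORD12 in its introns 1, 2, and 3 as annotated on GRCh37. Its leading event was exon 4 (62 nt, chr20:47897440-47897501), the exon just after the intron that holds SNORD12 (chr20:47897220-47897309), and it rose. It is shown with its flanks, exon in capitals (GRCh37, plus strand, chr20:47897410-47897531):
ZFAS1 exon 4: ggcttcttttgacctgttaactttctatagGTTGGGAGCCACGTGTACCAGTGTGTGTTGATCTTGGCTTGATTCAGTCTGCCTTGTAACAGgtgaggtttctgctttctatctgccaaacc

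After 7 days of GSK591, Ψ of ZFAS1 exon 4 was 0.79, 0.775, and 0.777, against 0.639, 0.65, and 0.637 in DMSO and 0.662, 0.669, and 0.649 with MS023. The GSK591 libraries stood clear of the other 7-day libraries, with ΔΨ of 0.139 ± 0.00644, a call that held when any library was left out but not in limma (adjusted p = 0.454). The direct difference from MS023 was 0.121 ± 0.00752. The share of RNA with exon 2 or exon 3 in place of exon 4 also changed after 7 days of GSK591, with ΔΨ of -0.0882 and -0.0714. Earlier values were closer to DMSO (0.603, 0.653, and 0.625 at 4 days). With GSK591 they were 0.644, 0.654, and 0.666 at 2 days and 0.674, 0.64, and 0.677 at 4 days, overlapping DMSO, and the 4-day call was lost with the event's own dispersion (adjusted p = 0.283). Co-treatment gave 0.599, 0.588, and 0.568 at 2 days and 0.678, 0.688, and 0.697 at 4 days, below and above DMSO, respectively. The 4-day ΔΨ of 0.0606 ± 0.0152 held in every fit with 1 library left out, and the 2-day ΔΨ of -0.0419 ± 0.0169 did not.

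SNHG8 hosts the H/ACA snoRNA SNORA24, at chr4:119199858-119206471 on the plus strand, and its 194-nt exon (chr4:119200099-119200292) was included less with each inhibitor at 4 and 7 days. Its Ψ was 0.898, 0.918, and 0.918 in 4-day DMSO. At 2 days it was 0.874, 0.802, and 0.882 with GSK591, which was not called (ΔΨ -0.059, adjusted p = 0.0563). It was 0.853, 0.837, and 0.819 with 2 days of MS023 (ΔΨ -0.075), a call lost without either of 2 MS023 libraries and with a trended dispersion prior. Co-treatment for 2 days gave 0.812, 0.805, and 0.779 (ΔΨ -0.113), a call that held when any library was left out. At 4 days it was 0.77, 0.815, and 0.799 with GSK591, 0.794, 0.786, and 0.817 with MS023, and 0.764, 0.745, and 0.738 with co-treatment. All were below DMSO, with ΔΨ of -0.117 ± 0.0148, -0.112 ± 0.0116, and -0.162 ± 0.0103. The difference between the single inhibitors at 4 days was -0.00465 ± 0.0162, and co-treatment minus GSK591 was -0.0451 ± 0.0153. Neither passed the test (adjusted p = 0.919 and 0.289), which does not show that the treatments act alike. At 7 days Ψ was 0.644, 0.72, and 0.727 with GSK591 and 0.728, 0.717, and 0.671 with MS023, against 0.809, 0.831, and 0.878 in DMSO. The 31-nt exon that starts further downstream and ends at the same 5′ splice site had lower Ψ as well, from 0.727, 0.674, and 0.601 in 4-day DMSO to 0.469, 0.451, and 0.431 after 4 days of co-treatment. No call of either exon against DMSO held in limma.

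SNHG15 hosts SNORA9, at chr7:45022618-45026560 on the minus strand, and its 70-nt exon (chr7:45023956-45024025) responded to MS023 and to co-treatment. Its Ψ was 0.96, 0.992, and 0.939 in 4-day DMSO, 0.856, 0.888, and 0.898 after 2 days of MS023, and 0.877, 0.855, and 0.879 after 4 days. Co-treatment gave 0.792, 0.775, and 0.781 at 2 days but 0.892, 0.931, and 0.932 at 4 days. GSK591 gave 0.912, 0.959, and 0.953 at 2 days and 0.993, 0.968, and 0.97 at 4 days, overlapping DMSO. ΔΨ was -0.0831 ± 0.0198 and -0.0937 ± 0.0172 with MS023, and -0.181 ± 0.0162 with 2 days of co-treatment. Each MS023 call was lost without either of 2 MS023 libraries, and the co-treatment call held in every such fit. At 7 days neither inhibitor was called. An A5SS event of 139 nt in SNHG15 was lower with 2 days of GSK591 (0.101, 0.139, and 0.0919 against 0.176, 0.241, and 0.154, a call lost without 1 DMSO library) and with 4 days of co-treatment (0.115, 0.0693, and 0.0816). None of these SNHG15 calls held in limma.

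EPB41L4A-AS1 hosts SNORA13 in its intron 1 (chr5:111497182-111497314), and its single event, skipping of exon 2 (73 nt, chr5:111497400-111497472), was rare. Ψ was 1 in all 4-day DMSO libraries and 0.954, 1, and 0.981 after 4 days of GSK591, and the ΔΨ of -0.0217 ± 0.0134 and of -0.0227 ± 0.0117 with 4-day co-treatment were called, with libraries that overlapped DMSO. Both calls were lost in 5 of 6 fits with 1 library left out, and in limma.

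SNHG12 hosts SNORA16A, SNORA44, SNORA61, and SNORD99, at chr1:28905050-28909644 on the minus strand, and it had 5 RI, the most after C17orf76-AS1. With 4 days of co-treatment, 4 of its events were higher and 1 lower of 10 tested. The lower one was a 30-nt A5SS segment (chr1:28906424-28906453), named after its values were seen. It was at 0.845, 0.817, and 0.786 in DMSO and at 0.567, 0.631, and 0.551 with co-treatment (ΔΨ -0.233 ± 0.0299), with no overlap. This segment did not reach the 50 reads in every library asked of described segments. Whether its call holds with a library left out, with its own dispersion, or in limma is not given. The higher ones were introns 3 and 4 and A5SS segments of 135 and 17 nt. The 135-nt segment is the 5′ end of intron 3, so its reads count toward inclusion of that intron. The 30-nt segment ends at the 5′ splice site of intron 4, so its lower use takes away reads that splice out that intron. Both can raise the Ψ of these introns without more retention, and their part was not tested. Intron 3 (578 nt, chr1:28906494-28907071) had Ψ of 0.162, 0.0999, and 0.15 in 4-day DMSO, 0.171, 0.269, and 0.224 after 4 days of GSK591, and 0.183, 0.253, and 0.218 after 4 days of co-treatment. All 6 were above DMSO, with ΔΨ of 0.0842 ± 0.0339 and 0.0807 ± 0.0276, but each call was lost without either of 2 libraries. Intron 4 (324 nt, chr1:28906100-28906423) was at 0.684, 0.724, and 0.801 in DMSO and at 0.889, 0.841, and 0.828 after 4 days of co-treatment (ΔΨ 0.116 ± 0.0389), a call that was also lost without either of 2 libraries. No call of introns 3 and 4 held in limma.

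The 135-nt A5SS segment (chr1:28906937-28907071) was at 0.0624, 0.0625, and 0.091 in 4-day DMSO and at 0.138, 0.159, and 0.208 after 4 days of co-treatment. Its ΔΨ of 0.0964 ± 0.0228 had no overlap and held when any library was left out and with the event's own dispersion, but not in limma. With 4 days of GSK591 it was at 0.111, 0.138, and 0.126 (ΔΨ 0.0529 ± 0.0124), which was not called (adjusted p = 0.0571).

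The 17-nt segment of SNHG12 lies between alternative 5′ splice sites (chr1:28907606-28907622), and it is shown so that both sites can be seen, in capitals with 30 bases on either side (GRCh37, minus strand, chr1:28907576-28907652). The upstream site lies at the start of the capitals (GTAGTA) and the downstream site right after them (gtgagg):
SNHG12 17-nt segment: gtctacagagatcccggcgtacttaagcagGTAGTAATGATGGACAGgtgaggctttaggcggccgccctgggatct

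Use of the downstream site, which keeps the segment, was at 0.202, 0.0974, and 0.171 in 4-day DMSO and at 0.365, 0.415, and 0.292 after 2 days of co-treatment, from 73 to 205 reads per library. ΔΨ was 0.201 ± 0.0472, a call that held when any library was left out, but no call of this segment against DMSO held in limma. After 2 days of GSK591 alone it was 0.311, 0.207, and 0.219, a call lost in 5 of 6 fits with 1 library left out, the fit without library a (0.311) among them, and after 4 days it was 0.158, 0.191, and 0.14, overlapping DMSO. After 4 days of co-treatment it was 0.269, 0.254, and 0.304 (ΔΨ 0.119 ± 0.0343, a call lost without any 1 of 3 libraries), and co-treatment minus MS023 was 0.196 ± 0.0403 at 2 days.

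**Figure D2:**
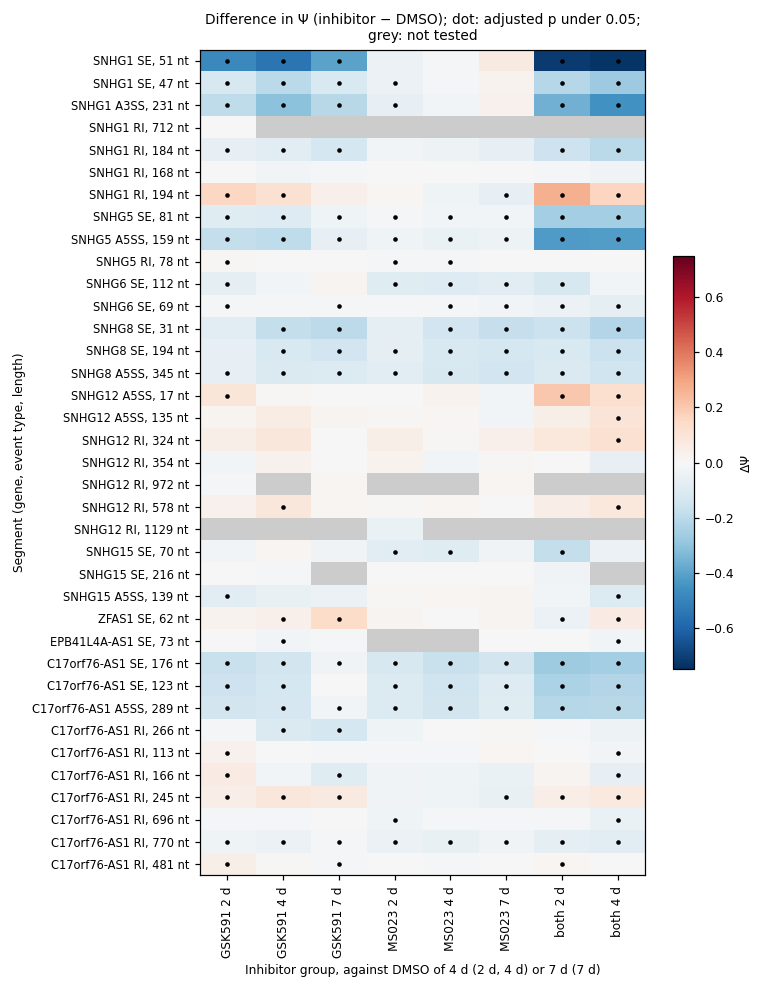
ΔΨ of 37 segments of the 9 genes (rows, with event type and length in nt) in the 8 inhibitor groups (columns), with colour from blue (lower Ψ than DMSO) to red (higher), a dot where the adjusted p was under 0.05, and grey where the event was not tested. The darkest cells are SNHG1 exon 4 with 2 and 4 days of GSK591 and of co-treatment (down to -0.736), and the MS023 columns hold no dots in SNHG12 or ZFAS1.

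Across the SE of the 9 genes, most called exons were included less, as over all SE except with 7 days of MS023. With GSK591, 1 was higher and 13 lower of 75 tested at 2 days (7.16% of all SE called), 2 higher and 12 lower of 75 at 4 days (10.6%), and 3 higher and 10 lower of 83 at 7 days (8.55%). With MS023, 11 were lower of 66 at 2 days (3.67%), 11 lower of 61 at 4 days (4.28%), and 3 higher and 11 lower of 82 at 7 days (4.95%). With co-treatment, 1 was higher and 19 lower of 73 at 2 days (13.8%), and 2 higher and 17 lower of 81 at 4 days (14.6%). Over all SE, GSK591 gave 1.34%, 2.52%, and 3.59% higher and 5.82%, 8.07%, and 4.96% lower at 2, 4, and 7 days. MS023 gave 1.04%, 1.5%, and 2.48% higher and 2.63%, 2.77%, and 2.47% lower. Co-treatment gave 2.32% and 4.01% higher and 11.5% and 10.6% lower at 2 and 4 days.

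The RI of the 9 genes changed in both directions with GSK591 and co-treatment, and the share of all RI called higher and lower is given beside each count. With GSK591, 6 were higher and 2 lower of 16 tested at 2 days (all RI, 24% higher and 2.38% lower), 3 higher and 3 lower of 14 at 4 days (33.9% and 4.32%), and 1 higher and 5 lower of 15 at 7 days (21.8% and 6.1%). With co-treatment, 3 were higher and 2 lower of 14 at 2 days (29.7% and 5.03%), and 4 higher and 5 lower of 14 at 4 days (33.6% and 6.1%). With MS023, 3 were lower of 15 at 2 days (1.44% and 4.21%), 2 lower of 14 at 4 days (1.57% and 5.6%), and 3 lower of 15 at 7 days (1.93% and 9.49%), and none was higher. The median ΔΨ of the RI tested after 4 days of co-treatment was -0.0214 in the 9 genes and 0.0161 over all RI. Several of these RI overlap each other, so the counts rest on fewer separate introns.

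The inhibitor groups of the same day were also compared directly, without DMSO. GSK591 minus MS023 gave 22 events higher and 20 lower of 95 tested at 2 days (11.7% of all events called), 25 higher and 17 lower of 94 at 4 days (17.1%), and 27 higher and 20 lower of 117 at 7 days (14.7%). Co-treatment minus GSK591 gave 6 higher and 24 lower of 101 at 2 days (4.41%) and 9 higher and 22 lower of 126 at 4 days (6.53%). Co-treatment minus MS023 gave 15 higher and 26 lower of 104 at 2 days (13.9%) and 19 higher and 27 lower of 96 at 4 days (17.3%). Without library a of 2 days of GSK591, 36 events were called for GSK591 minus MS023 and 29 for co-treatment minus GSK591 at 2 days. Numbers tested and shares over all events without that library are not given here, so these 2 counts cannot be set against such a share. By gene, C17orf76-AS1 held 17 of the 22 events that were higher with GSK591 than with MS023 at 2 days, 17 of 25 at 4 days, and 22 of 27 at 7 days. It also supplied 34 of the 95 tested events at 2 days, 33 of 94 at 4 days, and 48 of 117 at 7 days. Of the 20 lower events at 2 days, 8 were in SNHG1 (25 tested), 6 in SNHG5 (12 tested), and 4 in C17orf76-AS1. Of the 20 at 7 days, 7 were in C17orf76-AS1, 6 in SNHG1 (22 tested), and 4 in SNHG5 (19 tested).

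DMSO at 7 days against DMSO at 4 days gave 4 events higher and 30 lower of 131 tested in the 9 genes (7.04% of all events called). Of the lower events, 16 were in C17orf76-AS1 (53 tested) and 9 in SNHG5 (15 tested). The effect of GSK591 differed between 7 and 4 days at 14 events with a higher and 4 with a lower difference of 111 tested (1.83% of all called). For MS023, 0 of 103 events passed the same test (0.0779%), with 18 at an unadjusted p under 0.05, and limma called 0, with 3 at an unadjusted p under 0.05.

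Other snoRNA hosts, among them many ribosomal protein genes, GAS5, and further SNHG genes, served as a wider list of 66 genes. Their SE events were also mostly lower where called, as were all SE in these comparisons. They numbered 10 higher and 53 lower of 664 tested with 2 days of GSK591 (9.49% called, against 7.16% of all SE). Counts were 12 higher and 26 lower of 646 with 2 days of MS023 (5.88% against 3.67%). For 4 days of co-treatment they were 35 higher and 111 lower of 708 (20.6% against 14.6%). RI of the wider list gave 21 higher and 5 lower of 83 with 2 days of GSK591 (all RI, 24% and 2.38%), 24 higher and 9 lower of 82 with 4 days (33.9% and 4.32%), and 14 higher and 16 lower of 83 with 7 days (21.8% and 6.1%). With 2 days of MS023 they gave 1 higher and 13 lower of 84 (1.44% and 4.21%). Genes for snoRNA-binding proteins and their assembly factors, such as FBL and NOP58, formed a list of 20 with 4 RI tested. Of these RI, 1 was higher with 2 days of GSK591 (25%, against 26.4% of all RI called) and 2 with 4 days of co-treatment (50%, against 39.7%). Their SE gave 1 higher and 5 lower of 132 with 2 days of GSK591 (4.55%, against 7.16% of all SE).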

How the data were processed

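Poly(A)-RNA from A549 cells was sequenced in 30 libraries. Per the submitters' processing notes and the study's methods, reads were trimmed (Trim Galore 0.6.5), aligned to hg19 (STAR 2.4.2a), and passed to rMATS. The authors deposited, per splicing event, raw counts of inclusion and skipping reads (junction reads plus reads within the segment) for 3 libraries against 3 in each of 8 tables, along with effective lengths. Their own inclusion levels, differences, and p-values were not used. The control of the 7-day tables was taken as 7-day DMSO. Other experiments of the study were not analysed here.

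Ψ was computed from the counts divided by the effective lengths. Events with at least 10 reads in every library and both forms seen were fitted with a quasi-binomial logistic model in R 4.3.3, with the dispersion moderated by limma 3.58.1 (floor of 1), an F test, and Benjamini-Hochberg adjustment over all events of the type in a comparison. The DMSO groups, the inhibitor groups of 1 day, and the effects at 7 and 4 days (interaction term) were compared in the same way across tables. In the alternative called own dispersion, an event's dispersion was never taken under its own estimate. Alternatives included limma on log2 odds (prior count of 0.5), read minimums of 20 and 1, and leaving out each library. Scripts were tested on simulated data. Sequences and transcripts came from GRCh37 annotation, and snoRNA names from RefSeq.

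The genes, lists, and segments were chosen with earlier results of these data known. Of the 43 segments named by label or plotted, 40 came from a rule, and 3 (SNHG1 exon 6, its A3SS form, and the SNHG5 81-nt exon) were added after their values were seen. For each gene the rule took all tested RI and up to 3 further segments. The further segments were those with the largest absolute ΔΨ in a comparison where they were called with 50 reads or more in every library. They were thus chosen by their own calls and ΔΨ, so these do not stand for the other events. Replicate libraries carried no number within the tables.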

Additional observations from a re-analysis of the deposited data

Results flagged for a closer look

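The ΔΨ of GSK591 relative to the DMSO of its time differed between 7 and 4 days, by an interaction term, at 10 described segments. At SNHG1 exon 4 the difference (7 days minus 4 days) was 0.144 ± 0.0541 (SE), an adjusted p of 0.0195 that became 0.292 with the event's own dispersion. In SNHG5 it was 0.0673 ± 0.0134 for the 81-nt exon, 0.129 ± 0.0275 for the A5SS segment, and 0.0798 ± 0.0141 and -0.109 ± 0.038 for the 2 exon pairs. In C17orf76-AS1 it was 0.109 ± 0.0252 for the 176-nt exon, 0.126 ± 0.0224 for the 123-nt exon, 0.104 ± 0.0215 for the A5SS segment, and 0.0304 ± 0.00858 for intron 2. At ZFAS1 exon 4 it was 0.102 ± 0.0195, and there the effect at 7 days was the larger, whereas at the exons of the other 3 genes it was nearer 0 at 7 days.

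At the SNHG1, SNHG5, and C17orf76-AS1 exons the 7-day DMSO libraries were themselves below the 4-day ones, by 0.138, 0.0404, and 0.15 in Ψ, whereas at ZFAS1 exon 4 they differed by less than the spread between libraries (means of 0.627 and 0.642). The part of the DMSO difference in these results was not tested. With the event's own dispersion the adjusted p was 0.00309 for the SNHG5 exon, 0.0345 for the C17orf76-AS1 exon, and 0.000228 for ZFAS1 exon 4. The difference at intron 2 of C17orf76-AS1 (adjusted p = 0.0479) held in only 2 of 12 fits with 1 library left out and not with the event's own dispersion (0.271). The SNHG5 exon pair at -0.109 held in 7 of 12 and under neither the own nor the trended dispersion, and SNHG1 exon 4 held in 6 of 12. The other 7 segments held in 12 of 12. In limma no event of the 9 genes passed this test (0 of 111, with 15 at an unadjusted p under 0.05).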

How the results depend on the processing

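Of 191 called values of the described segments, over all comparisons, 190 remained called with a minimum of 20 reads, 189 with a minimum of 1 read, 183 with adjustment over all event types together, 171 with a trended and robust prior, 163 with the own dispersion, and 43 with limma on log2 odds. No direction reversed. The trended prior and the own dispersion were chosen after seeing the data. Of the 165 calls against DMSO, 124 held whichever library was left out.

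With limma the called events of the 9 genes numbered 4 of 142, 13 of 138, and 6 of 155 tested for GSK591 at 2, 4, and 7 days. For co-treatment they numbered 20 of 128 and 29 of 145 at 2 and 4 days. For MS023 they numbered 0 of 127, 0 of 116, and 0 of 156 (15, 22, and 25 at an unadjusted p under 0.05). They numbered 6, 11, and 10 for GSK591 against MS023 at 2, 4, and 7 days, 0 (27 unadjusted) and 1 for co-treatment against GSK591, 12 and 20 for co-treatment against MS023, 11 between the DMSO groups, and 0 (15 unadjusted) for the difference between GSK591 effects. The trended prior gave 15 for MS023 at 2 days. The own dispersion gave 25 for GSK591 at 7 days and 10 for the difference between GSK591 effects. The cause of these changes was not tested. Shares of all events called under these settings are not given here. These counts therefore do not show whether the larger share in the 9 genes remains.

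Leaving out 1 library gave 26 to 37 events for GSK591 at 2 days (26 without DMSO 4 days library b), 12 to 21 for MS023 at 2 days (15 without DMSO 4 days library a and 12 without any MS023 library), 25 to 34 for GSK591 at 7 days (25 without DMSO 7 days library b), 22 to 28 for MS023 at 7 days (22 without MS023 library b or c), and 0 to 8 for the difference between MS023 effects (8 without DMSO 7 days library c). Letters give the position of a library in its cell. Shares of all events called in these fits are not given here, except against DMSO without library a of 2 days of GSK591.

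No paired analysis was possible because the count columns carry no replicate numbers. A planned count model for whole reads was not run, since each cell holds the counts of 3 libraries. Skipping reads limit the precision of exons near full inclusion, and 3 libraries per group limit every test.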
